A study of Mus musculus with 9 samples.

Results

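The Rab6 effectors and regulators described here are 10 mouse genes, Bicd1, Bicd2, Kif20a, Kif5b, Gcc2, Tmf1, Rgp1, Rabgap1, Golga5 and Vps52. They were chosen by name, as the rows of the deposited expression values whose Ensembl identifier carries one of these symbols in GENCODE M21, and all 10 were found among 28137 identifiers. The values are FPKM, read numbers per gene divided by the exon length of the gene and by the size of the library, in RAW264.7 cells, a mouse line of leukemic monocytes and macrophages. In 3 groups of 3 libraries each, the cells received control siRNA (NC), SFRP2 siRNA or RAB6A siRNA. The study lists several SFRP2 siRNA sequences under numbers that the titles of the SFRP2 siRNA libraries also carry, and the labels do not say whether these libraries are replicates of 1 siRNA or each had its own. The SD and p-values of that group may therefore include differences between siRNAs. The labels give the same handling for all 9 libraries, with 60 nM siRNA and Lipofectamine 8000 for 6 h in DMEM, 12 h in complete medium, and then lipopolysaccharide (LPS) at 100 ng/ml for 24 h. Every group was therefore transfected and stimulated, and unstimulated or untransfected cells are no part of these libraries. The titles of all 9 libraries also carry 6H, and the step that 6H refers to is not given in the sources used here. The depth behind the FPKM was 32758730 to 47149253 reads per library.

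Rab6 is a small GTPase of the Golgi apparatus that cycles between a GTP-bound form on membranes and a GDP-bound form in the cytosol. An exchange factor loads it with GTP, GTPase-activating proteins return it to the inactive form, and the active form recruits effectors that include motor adaptors, kinesins and tethers. These effectors move and dock vesicles at the Golgi, between endosomes and the Golgi, and on the way to the cell surface, a route by which LPS-stimulated macrophages release cytokines.

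The targeted genes were examined first. Rab6a had an FPKM of 24.3, 27.3 and 25.5 in the NC libraries, 26.6, 28.6 and 25.8 in the SFRP2 siRNA libraries, and 21.2, 20.7 and 20.4 in the RAB6A siRNA libraries. All 3 RAB6A siRNA libraries lay below all 6 others, and their mean was 80.8% of that of NC (log2 fold change -0.31 ± 0.06 SE, limma adjusted p = 0.0024). Among all 12712 tested genes, 36.5% were called lower than NC, 38.2% were lower without overlap and 73.3% had a larger absolute fold change. The log2 fold change was -0.09 (limma adjusted p = 0.229) once gene GC and length trends had been removed, so that its call depends on the processing. Sfrp2 was covered by 2 to 4 reads in every library, which gives no check of the SFRP2 siRNA group, and its FPKM ranged from 0.0197 to 0.0223 in NC and from 0.0267 to 0.0478 in the libraries labelled SFRP2 siRNA. Rab6b, the other Rab6 gene measured, stayed between 0.0374 and 0.236 FPKM. The 10 macrophage markers examined, among them Lyz2, Cd68 and Adgre1, were all at 17.8 FPKM or higher in every library, whereas no fibroblast, epithelial, endothelial, T cell or B cell marker exceeded 1.32 FPKM. The summed macrophage markers ranged from 5227 to 5668 FPKM in NC, from 4625 to 4979 with SFRP2 siRNA and from 4760 to 5040 with RAB6A siRNA. Single macrophage markers did change with RAB6A siRNA against NC. Of the 10, 3 fell and 2 rose by limma (adjusted p under 0.05), against 36.5% of all tested genes lower and 37.6% higher. Those that fell were Lyz2 (from 872 to 214 FPKM), Spi1 (to 48.3% of NC) and Fcgr1 (to 59.9%). Those that rose were Tyrobp (1.97-fold) and Ptprc (1.13-fold). The 5 fibroblast markers together had 1.30 to 2.58 FPKM in NC and 2.08 to 3.32 with RAB6A siRNA. There Col1a2 had a mean of 0.825 FPKM (0.310 in NC) and Dcn of 0.701 FPKM (0.348 in NC). Both reached a mean of 0.5 FPKM, the filter for testing, only through the RAB6A siRNA group, so that their values are given with no test. The part of these changes in the values of the members was not tested.

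Of the 10 members, 9 passed the filter of a mean FPKM of at least 0.5 in every comparison, and Bicd1 did not. In the comparison of RAB6A siRNA with NC, Kif20a, Kif5b and Tmf1 were lower (adjusted p under 0.05) and the other 6 tested members were not called. Kif20a fell to 14.5% of its NC level, Kif5b to 55.2% and Tmf1 to 68.7%. The 3 called members of 9 stand against a background in which 9418 of 12712 tested genes, or 74.1%, had an adjusted p under 0.05, and 36.5% were lower. With the additional threshold of an absolute log2 fold change over 1, the rule for a differentially expressed gene (DEG), Kif20a was the single DEG among the members, against 30.1% of all tested genes. Values without overlap between the 3 RAB6A siRNA and the 3 NC libraries were found for the same 3 members, all lower, against 38.2% of all tested genes lower without overlap. The median log2 fold change was 0.03 over the 9 members and 0.03 over all tested genes, whose median absolute change was 0.63.

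**Figure D1:**
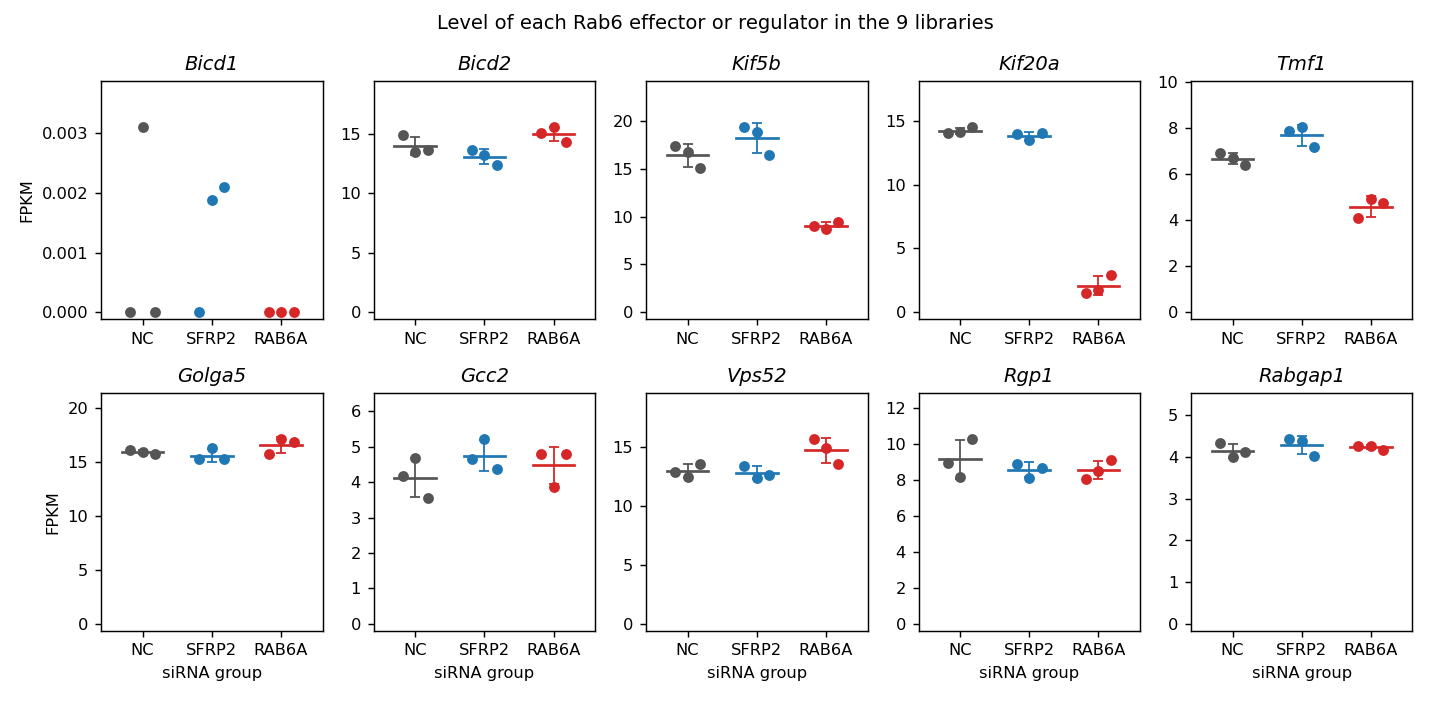
FPKM of the 10 members in each library (points), by siRNA group (NC, SFRP2 and RAB6A), with the group mean (line) and SD (error bar, n = 3), except for Bicd1, where points alone are drawn. The RAB6A siRNA libraries lie below all others for Kif5b, Kif20a and Tmf1, and Bicd1 stays under 0.004 FPKM.

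Kif20a, a kinesin first known as a binding partner of Rab6 and needed for cytokinesis, where it brings the chromosomal passenger complex to the central spindle, changed most among the members. Its FPKM was 14.0, 14.2 and 14.5 in NC, 14.0, 13.5 and 14.1 in the SFRP2 siRNA group, and 1.5, 1.77 and 2.93 in the RAB6A siRNA group. The NC and SFRP2 siRNA libraries lay close together, with ranges that overlapped slightly and the lower values in the SFRP2 siRNA group. Every RAB6A siRNA library was far below both, the third being the highest of the 3. The mean fell 6.88-fold, from 14.2 ± 0.242 to 2.07 ± 0.756 FPKM (SD, n = 3), with a log2 fold change of -2.78 ± 0.21 (SE, limma adjusted p = 1.8e-05) and a 95% interval from -3.28 to -2.28. Only 84 of the 12712 tested genes had a lower fold change. These values rest on 2122 to 2895 reads per library in the NC and SFRP2 siRNA groups and on 237, 291 and 416 reads in the RAB6A siRNA group. In the SD relative to the mean, Kif20a was at 1.70% in NC and at 36.6% in the RAB6A siRNA group, the widest spread among the 9 tested members in any group. Without the third RAB6A siRNA library the log2 fold change was -3.05.

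The gene lies on chromosome 18, and 1271 of its 4338 exon bases are also exon bases of Cdc23, on the opposite strand. Cdc23, a subunit of the anaphase-promoting complex, went from 3.72 ± 0.253 FPKM in NC to 2.55 ± 0.0609 in the RAB6A siRNA group (log2 fold change -0.53, limma adjusted p = 0.00071). Whether reads were assigned by strand is not given in the sources used here, so that reads in the shared stretch cannot be told apart, and the part of Cdc23 in the value of Kif20a was not tested.

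Because Kif20a acts in dividing cells, 20 genes of mitosis and cytokinesis were examined beside it. They were listed by hand with earlier results of these data known, so that their counts are a description and no test of the list. All 20 fell in the RAB6A siRNA group (adjusted p under 0.05 in each, against 36.5% of all tested genes), and 14 of them were DEGs, against 12.8% of all tested genes lower by that rule. The log2 fold changes ranged from -2.43 (Plk1, a mitotic kinase) to -0.59 (Incenp, the scaffold of the chromosomal passenger complex), with a median of -1.39. Plk1 had an FPKM of 29.3, 32.2 and 30.8 in NC and of 5.08, 4.87 and 7.14 in the RAB6A siRNA group. As with Kif20a, the third RAB6A siRNA library held the highest value of its group and still lay below all NC libraries. Cyclin B1 (Ccnb1) changed by -2.17, the spindle kinesin Kif11 by -1.97, topoisomerase Top2a by -1.82, and Cdc20, an activator of the anaphase-promoting complex, by -1.81 on the log2 scale. Among the direct partners of Kif20a in cytokinesis, Aurkb changed by -0.92, Birc5 by -1.63, Cdca8 by -0.86 and the central spindle kinesin Kif23 by -1.32 on this scale. All 20 stayed lower with an adjusted p under 0.05 in each of the 18 alternative fits.

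**Figure D2:**
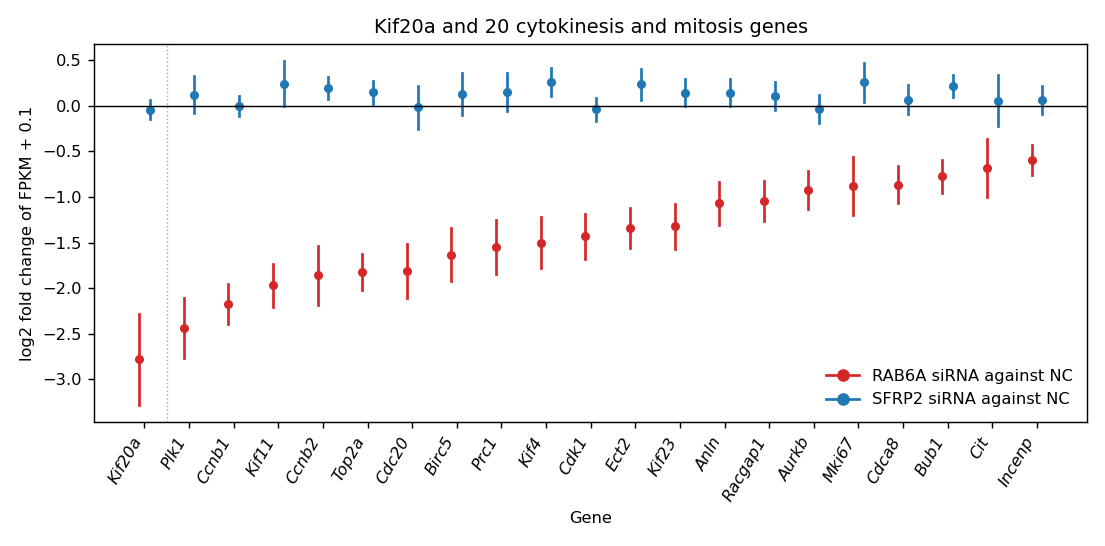
Log2 fold change of FPKM + 0.1 (vertical axis) of Kif20a and of 20 genes of cytokinesis and mitosis (horizontal axis), for RAB6A siRNA against NC (red) and SFRP2 siRNA against NC (blue). Bars are 95% intervals from limma with 3 libraries a group, and all 21 red values lie below 0.

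Kif20a was then set against the mean of these genes within each library. The log2 ratio of Kif20a to the mean of the 20 genes was 0.16, 0.20 and 0.33 in NC, 0.09, -0.01 and 0.12 in the SFRP2 siRNA group, and -1.48, -1.24 and -0.77 in the RAB6A siRNA group. The RAB6A siRNA libraries lay below all NC libraries, with a difference of means of -1.40 (exact two-sided permutation test, p = 0.1, adjusted p = 0.2 over 6 tests, the smallest p that 3 libraries against 3 allow being 0.1). The SFRP2 siRNA libraries were also all below the NC libraries, by -0.16 on average (exact permutation test, p = 0.1, adjusted p = 0.2). In that comparison Kif20a itself changed by -0.04 and the 20 genes by a median of 0.14 on the log2 scale, and none of these genes was called by limma. This ratio was chosen after the values had been seen. In RNA from whole cultures, fewer dividing cells and less of these transcripts per cell cannot be told apart.

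Kif5b, the widely expressed heavy chain of kinesin-1, which carries Rab6 vesicles toward the cell surface along microtubules, was the second member that fell. Its FPKM was 17.4, 16.8 and 15.1 in NC, 19.4, 18.8 and 16.5 in the SFRP2 siRNA group, and 9.0, 8.74 and 9.43 in the RAB6A siRNA group. The NC and SFRP2 siRNA libraries overlapped, and the RAB6A siRNA libraries lay close together and well below both. The change from NC was 1.81-fold lower, with a log2 fold change of -0.85 ± 0.07 (SE, limma adjusted p = 2.8e-05) and a 95% interval from -1.02 to -0.68. Of the 3 kinesin-1 heavy chain genes, Kif5b held a mean of 80.0% of the summed FPKM in NC, 84.0% in the SFRP2 siRNA group and 71.1% in the RAB6A siRNA group. Kif5a, which had 4.06 ± 0.510 FPKM in NC, was at 3.65 ± 0.667 in the RAB6A siRNA group (log2 fold change -0.16, limma adjusted p = 0.351), and Kif5c was below 0.1 FPKM throughout. The kinesin light chains Klc1 and Klc4, which link kinesin-1 to cargo, rose by 0.42 and 0.59 on the log2 scale, and Klc2, another light chain, was not called (-0.11, limma adjusted p = 0.162). Kif5b lies on chromosome 18 like Kif20a, where 129 of 319 tested genes, or 40.4%, were lower with an adjusted p under 0.05.

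Bicd1 and Bicd2 encode the Bicaudal D adaptors, coiled-coil proteins that bind active Rab6 with one end and the dynein and dynactin motor with the other. Bicd2 was the only one of the pair with a measurable level. Bicd1 had 4 reads in the second NC library, 2 in each of SFRP2 siRNA libraries 2 and 3 and 0 in the other 6, a total of 8 reads over its long transcript (ENSMUSG00000003452 at chr6:149408886-149563329, + strand, GRCm38). A count of 3 reads, the upper limit that a count of 0 allows if reads are counted independently, corresponds to between 0.00232 and 0.00335 FPKM for this gene. The libraries were sequenced as pairs, and all counts above 0 here were 2 or 4. Both reads of a pair may therefore have been counted, and the limit may be higher. No change of Bicd1 was detectable at this depth, and no fold change is given. Such limits cover counting error only. Bicd2 (chr13:49341585-49387026, + strand) had an FPKM of 14.9, 13.5 and 13.6 in NC, 13.7, 13.2 and 12.3 in the SFRP2 siRNA group, and 15.1, 15.5 and 14.3 in the RAB6A siRNA group. The RAB6A siRNA and NC libraries overlapped, and the difference was 0.10 ± 0.06 (log2 fold change ± SE, limma adjusted p = 0.199) with a 95% interval from -0.05 to 0.25. The GC and length correction (0.21), quantile normalization (0.20) and voom on the recovered reads (0.16) each called Bicd2 as higher.

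Genes of the motor that Bicd2 binds moved in both directions. Of 25 tested genes of dynein, dynactin and kinesin-1, 9 rose, 6 fell and 10 were not called in the RAB6A siRNA group, against 37.6% of all tested genes higher and 36.5% lower. None of the 25 was a DEG, against 30.1% of all tested genes. The median was 0.10 on the log2 scale. Dync1h1, the dynein heavy chain that holds the motor domain, fell by 0.61, the light intermediate chain Dync1li2 by 0.42 and the light chain Dynll2 by 0.51. The intermediate chain Dync1i2 rose by 0.81. In dynactin, the p150 subunit Dctn1 and the filament subunit Actr1b fell (-0.44 and -0.67), and Dctn2, Dctn3 and Dctn4 rose (0.46, 0.74 and 0.57). Over the alternative fits the value of Dctn3 ranged from 0.20 to 0.86. The dynein regulator Nde1, which also acts in mitosis, fell by 0.62.

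**Figure D3:**
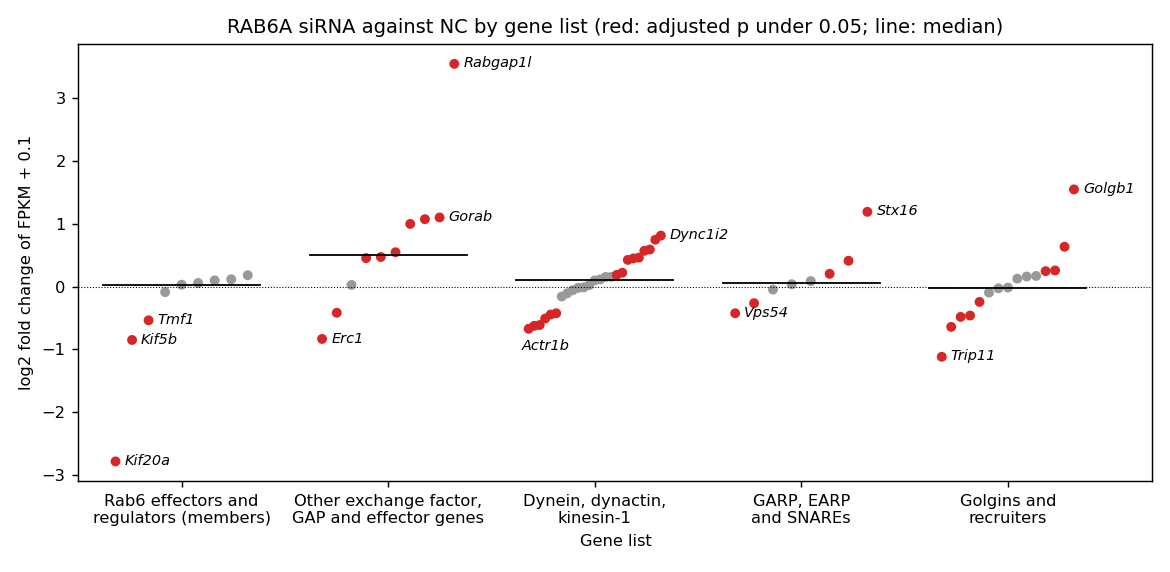
Log2 fold change of FPKM + 0.1 in the comparison of RAB6A siRNA with NC (vertical axis) for each tested gene of 5 lists (horizontal axis), with genes of adjusted p under 0.05 in red and the list median as a line. The medians of the members, of the motor genes, of the tethers and of the golgins lie between -0.02 and 0.10, and that of the other exchange factor, GTPase-activating and effector genes lies at 0.51. The latter list includes Rabgap1l, which passed the filter on low values only through the RAB6A siRNA group.

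The tethers among the members are the golgins Tmf1, Golga5 and Gcc2, long coiled-coil proteins that capture vesicles at Golgi membranes, and Vps52, a subunit shared by the GARP and EARP complexes, which tether vesicles arriving from endosomes. Of the 4, Tmf1 alone was called in the comparison of RAB6A siRNA with NC. Tmf1 was named for its binding to the TATA element and is a golgin that binds Rab6. Its FPKM was 6.93, 6.70 and 6.42 in NC, 7.86, 8.04 and 7.18 in the SFRP2 siRNA group, and 4.08, 4.92 and 4.76 in the RAB6A siRNA group. The 3 groups did not overlap, the SFRP2 siRNA libraries being the highest and the RAB6A siRNA libraries the lowest. The RAB6A siRNA mean was 1.46-fold lower than that of NC (log2 fold change -0.54 ± 0.09 SE, limma adjusted p = 0.00085, 95% interval from -0.74 to -0.33).

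Golga5, a golgin that tethers vesicles within the Golgi stack, was the most even of the members in NC. Its FPKM was 16.1, 15.9 and 15.8 in NC, 15.2, 16.3 and 15.2 in the SFRP2 siRNA group, and 15.8, 17.2 and 16.9 in the RAB6A siRNA group. The groups overlapped, with a log2 fold change of 0.06 ± 0.06 (SE, limma adjusted p = 0.381) between RAB6A siRNA and NC. The GC and length correction (0.25) and quantile normalization (0.18) called Golga5 as higher. On the deposited values Golga5 was not called in any comparison.

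The promoters of these golgins, one that fell and one that was not called, are shown as RefSeq gives them on GRCm38.p6, each 250 bases before to 50 bases after an annotated start, 5′ to 3′ on the strand of the gene. For Tmf1 the window is chr6:97179075-97179374 on the - strand, and the capitals mark the match to CGCATGCG, the core of the motif of NRF1 (nuclear respiratory factor). For Golga5 it is chr12:102468884-102469183 on the + strand, and the capitals mark the match to CACGTG, the E-box.
Tmf1: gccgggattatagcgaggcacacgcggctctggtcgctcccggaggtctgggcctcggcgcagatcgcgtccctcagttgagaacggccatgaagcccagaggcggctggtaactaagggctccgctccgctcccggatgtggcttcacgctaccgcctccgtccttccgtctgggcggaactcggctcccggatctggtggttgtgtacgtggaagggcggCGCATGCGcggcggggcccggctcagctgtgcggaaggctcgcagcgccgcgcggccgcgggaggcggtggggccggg
Golga5: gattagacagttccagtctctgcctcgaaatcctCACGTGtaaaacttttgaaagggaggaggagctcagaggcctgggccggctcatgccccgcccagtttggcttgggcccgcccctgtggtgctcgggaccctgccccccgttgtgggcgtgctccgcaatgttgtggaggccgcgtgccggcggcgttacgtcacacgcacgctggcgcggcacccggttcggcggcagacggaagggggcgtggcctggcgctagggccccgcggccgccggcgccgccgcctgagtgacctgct
In the Tmf1 window the match starts 28 bases before the start site, and in the Golga5 window 216 bases before it. Of 32851 RefSeq windows of this length, 1.87% hold CGCATGCG and 7.15% hold CACGTG on either strand. Of the 10 members, 8 have such windows, 12 in all, and Kif20a and Kif5b have none. Of the 8, Tmf1 alone held CGCATGCG. Tmf1 is also the only one of the 8 that was called for RAB6A siRNA against NC, and a link between the match and the fall was not tested. The other called members, Kif20a and Kif5b, could not be searched. CACGTG was found in Golga5 and Rabgap1. A further search for CCAAT, the CCAAT box, found it in Bicd2, Rabgap1 and Rgp1 and in 37.4% of all windows, and CCGGAAG, an ETS motif, was found in Rabgap1 and Vps52 and in 8.86% of all windows. TTTGAA, the cell cycle homology region, was found in Golga5 and in 17.9% of all windows. GGGGCGGGG, a GC box, was found in Rabgap1 and Rgp1 and in 11.4% of all windows. These motifs were chosen after the values had been seen, and a match describes the letters of a window and no more.

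Gcc2, a golgin of the trans-Golgi network that receives vesicles from endosomes, had an FPKM of 4.16, 4.68 and 3.55 in NC, 4.66, 5.22 and 4.36 in the SFRP2 siRNA group, and 4.78, 3.87 and 4.78 in the RAB6A siRNA group. All groups overlapped, and Gcc2 had the widest interval of the 6 members that were not called, from -0.18 to 0.41 around a log2 fold change of 0.12 (limma adjusted p = 0.433). Vps52 had an FPKM of 12.9, 12.4 and 13.6 in NC, 13.4, 12.4 and 12.7 in the SFRP2 siRNA group, and 15.7, 14.9 and 13.6 in the RAB6A siRNA group. The first and second RAB6A siRNA libraries were above every NC library, and the third was just below the highest of them. The log2 fold change of Vps52 was 0.18 ± 0.07 (SE, limma adjusted p = 0.0538), so that Vps52 narrowly missed the threshold. Vps52 was called as higher without the third RAB6A siRNA library (0.24, limma adjusted p = 0.0142) and in 6 of the other alternatives. Of its exon bases, 156 of 3967 are shared with Rps18 on the opposite strand, which rose from 8.58 ± 0.504 to 17.5 ± 2.64 FPKM (limma adjusted p = 9.6e-05), and the part of Rps18 in the value of Vps52 was not tested.

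Of 8 tested tethers and SNAREs that work with Vps52, 3 rose and 2 fell in the RAB6A siRNA group, against 37.6% of all tested genes higher and 36.5% lower, with a median of 0.06. Vps54, the subunit particular to GARP, fell by 0.42 on the log2 scale and Vps53, a subunit of both complexes, by 0.26, although Vps53 was not called after the GC and length correction (-0.07). Stx16, the SNARE that GARP acts with at the trans-Golgi network, rose from 21.0 ± 1.08 to 48.0 ± 4.05 FPKM (log2 fold change 1.19, limma adjusted p = 8.5e-06), and its partner Vamp4 rose by 0.41. Of 15 tested golgins and their recruiters, 4 rose and 5 fell, against the same 37.6% and 36.5%, with a median of -0.02. Golgb1 (giantin, a large membrane golgin) rose by 1.54, the largest rise of this list, and Trip11, a golgin of the cis-Golgi, fell by 1.12. Golga3 rose by 0.25, and Uso1, Gorasp2 and Blzf1, which hold Golgi stacks together or tether incoming vesicles, fell by 0.64, 0.46 and 0.48.

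Rgp1 and Rabgap1 act on Rab6 itself. Rgp1 forms, with Ric1, the exchange factor that activates Rab6, and Rabgap1 is a GTPase-activating protein that binds it. Rgp1 (chr4:43578715-43587487, + strand) had an FPKM of 8.94, 8.19 and 10.3 in NC, 8.91, 8.09 and 8.66 in the SFRP2 siRNA group, and 8.08, 8.5 and 9.11 in the RAB6A siRNA group. Rabgap1 (chr2:37443279-37566454, + strand) had an FPKM of 4.34, 4.0 and 4.11 in NC, 4.43, 4.39 and 4.03 in the SFRP2 siRNA group, and 4.27, 4.26 and 4.17 in the RAB6A siRNA group. For both genes the 3 groups overlapped. The log2 fold change between RAB6A siRNA and NC was -0.09 ± 0.10 for Rgp1 (SE, limma adjusted p = 0.423) and 0.03 ± 0.07 for Rabgap1 (SE, limma adjusted p = 0.701), with 95% intervals from -0.31 to 0.13 and from -0.13 to 0.19. Of the exon bases of Rgp1, 902 of 6199 are shared with Gba2 and Msmp on the opposite strand, and Gba2 rose from 1.64 ± 0.451 to 3.17 ± 0.146 FPKM (limma adjusted p = 0.00287). The part of Gba2 in the value of Rgp1 was not tested.

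Ric1, the partner of Rgp1, rose. It had an FPKM of 4.71, 4.92 and 4.46 in NC, 4.71, 4.86 and 4.53 in the SFRP2 siRNA group, and 9.78, 9.14 and 9.48 in the RAB6A siRNA group. All RAB6A siRNA libraries lay far above the other 6, a 2.02-fold rise (log2 fold change 1.00 ± 0.07 SE, limma adjusted p = 9.8e-06). Within a library, the log2 ratio of Rgp1 to Ric1 was 0.91, 0.72 and 1.19 in NC, 0.90, 0.73 and 0.92 in the SFRP2 siRNA group, and -0.27, -0.10 and -0.06 in the RAB6A siRNA group. On the scale of FPKM + 0.1, the value of Rgp1 was therefore 1.92 times that of Ric1 in NC and 0.905 times that of Ric1 in the RAB6A siRNA group. The difference of the mean log2 ratios was -1.08, without overlap between the groups (exact permutation test, two-sided, p = 0.1, adjusted p = 0.2), and no smaller p is possible here. The ratio differed by -0.09 between SFRP2 siRNA and NC (exact permutation test, p = 0.7, adjusted p = 0.7). The ratio of Rgp1 to Rabgap1 differed from NC by -0.12 in the RAB6A siRNA group and by -0.13 in the SFRP2 siRNA group (exact permutation test, p = 0.4 and adjusted p = 0.48 for each).

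**Figure D4:**
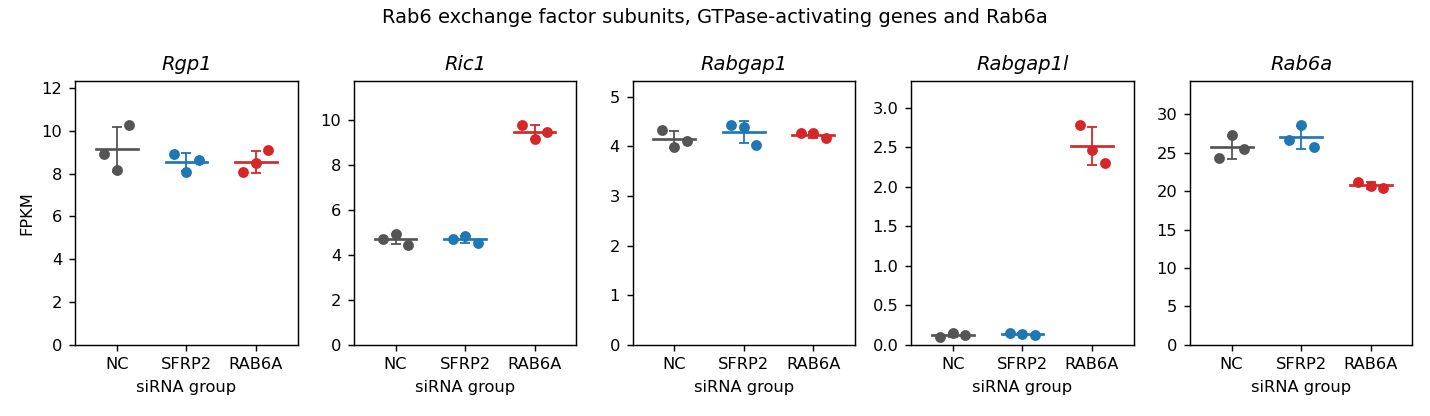
FPKM in each library (points), with the group mean (line) and SD (error bar, n = 3), of the exchange factor subunits Rgp1 and Ric1, of Rabgap1 and Rabgap1l, and of Rab6a, by siRNA group (NC, SFRP2 and RAB6A). In the RAB6A siRNA libraries Ric1 and Rabgap1l lie above all other libraries and Rab6a below them, while Rgp1 and Rabgap1 overlap between groups.

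Genes other than the members that switch or bind Rab6, with Ric1 counted again among them, were examined together. Of 10 tested, 7 rose, 2 fell and 1 was not called in the RAB6A siRNA group, against 37.6% of all tested genes higher and 36.5% lower. Of the 10, 3 were DEGs, all higher, against 30.1% of all tested genes that were DEGs in either direction. Over the alternatives the number of higher DEGs ranged from 2 to 4, and quantile normalization added 1 lower DEG. One of the 3, Rabgap1l, the paralog of Rabgap1, passed the filter on low values only through the RAB6A siRNA group, so that its place in these counts follows from that selection and its values are given with no test. Its FPKM was 0.10, 0.152 and 0.123 in NC, 0.119 to 0.145 in the SFRP2 siRNA group, and 2.78, 2.46 and 2.30 in the RAB6A siRNA group, with no overlap. The mean FPKM was 20.1 times that of NC, and the log2 fold change depended on the pseudocount, being 3.54 with 0.1, 1.64 with 1 and 4.24 with 0.01. Rabgap1 itself was not called. Dennd5a, which binds Rab6 and activates another Rab GTPase, and Gorab, a trans-Golgi golgin, rose by 1.07 and 1.10 on the log2 scale. The kinesin Kif1c rose by 0.55 and Apba3 by 0.47. Erc1, which docks Rab6 vesicles at the cell cortex, fell by 0.83, and Myh9, the heavy chain of nonmuscle myosin II, by 0.42.

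For SFRP2 siRNA against NC, 0 of the 9 tested members were called by limma. At an unadjusted p under 0.05 the count was 1, Tmf1, and with voom on the recovered reads it was 0. Over all 12017 tested genes, 0% had an adjusted p under 0.05 and 18.5% an unadjusted p under 0.05. Tmf1 was 1.15 times as high as in NC (log2 fold change 0.20 ± 0.06 SE, limma adjusted p = 0.204), and all 3 SFRP2 siRNA libraries were above all NC libraries, against 10.9% of tested genes higher without overlap. The log2 fold changes of the 9 members ranged from -0.10 (Bicd2) to 0.20 (Gcc2), and the 95% intervals together spanned -0.30 to 0.47, that is, from 0.812-fold to 1.39-fold. Kif20a, at -0.04 with an interval from -0.15 to 0.07, and Kif5b, at 0.15 with an interval from -0.04 to 0.34, were among those not called. Of 77 tested genes of the lists of partners, 0 were called by limma, 15 had an unadjusted p under 0.05 and 0 were called with voom. The missed threshold does not show that these genes have equal levels.

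**Figure D5:**
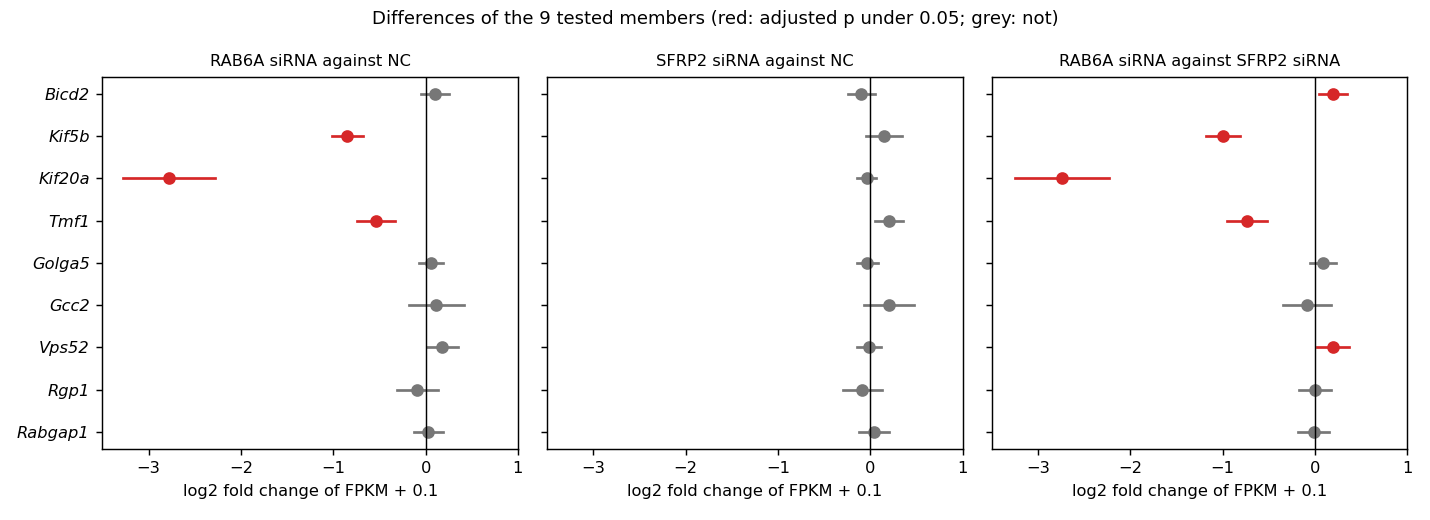
Log2 fold change of FPKM + 0.1 (horizontal axis) of the 9 tested members (vertical axis) in the comparisons of RAB6A siRNA with NC, of SFRP2 siRNA with NC and of RAB6A siRNA with SFRP2 siRNA. Bars are 95% intervals from limma with 3 libraries a group, red marks an adjusted p under 0.05, and Kif20a lies between -2.78 and -2.74 in both comparisons of the RAB6A siRNA group.

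The direct comparison of RAB6A siRNA with SFRP2 siRNA tests whether the siRNA groups differ from each other. Here 5 of 9 members were called, against 73.4% of 12764 tested genes, and 1 was a DEG, against 31.1%. Kif20a was lower by -2.74 ± 0.22 (SE, limma adjusted p = 3.1e-05), Kif5b by -0.998 ± 0.08 (2.8e-05) and Tmf1 by -0.74 ± 0.09 (0.00027) on the log2 scale. Bicd2 (0.20, limma adjusted p = 0.0272) and Vps52 (0.19, limma adjusted p = 0.0423) were higher, and both lost their call without RAB6A siRNA library 1 or 2 or SFRP2 siRNA library 2 or 3 (Bicd2 0.15 to 0.20, Vps52 0.15 to 0.19), as did Vps52 without SFRP2 siRNA library 1 (0.23). Vps52 also lost its call with no filter on low values (limma adjusted p = 0.0622), without the eBayes trend (0.0682) and after the GC and length correction (0.0999). Golga5 was called as higher after quantile normalization (0.20) and after the GC and length correction (0.24). The same 5 members showed no overlap between the groups, against 77% of all tested genes. Rgp1, Rabgap1, Golga5 and Gcc2 were not called, with intervals that together spanned -0.35 to 0.23. Both comparisons of RAB6A siRNA share the same 3 RAB6A siRNA libraries, so that they are not independent of each other.

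FPKM are values per length, here that of all annotated exons of a gene, so that an order of genes by level is approximate. Which transcripts of a gene were expressed was not examined. Exon bases shared with other genes, 29.3% of those of Kif20a and 14.6% of those of Rgp1, can also enter the values. In NC the order of the group means was Kif5b (16.4), Golga5 (15.9), Kif20a (14.2), Bicd2 (14.0), Vps52 (13.0), Rgp1 (9.14), Tmf1 (6.68), Rabgap1 (4.15), Gcc2 (4.13) and Bicd1 (0.00103 FPKM). Kif5b and Golga5, Kif20a and Bicd2, Bicd2 and Vps52, and Rabgap1 and Gcc2 overlapped as neighbours over their libraries, and the other neighbours did not. In the SFRP2 siRNA group the order was the same except that Gcc2 (4.75) stood before Rabgap1 (4.28), which overlapped, and Kif5b (18.2) was above Golga5 (15.6) in every library. In the RAB6A siRNA group Golga5 (16.6), Bicd2 (15.0) and Vps52 (14.7) led, followed by Kif5b (9.06), Rgp1 (8.56), Tmf1 (4.59), Gcc2 (4.48), Rabgap1 (4.24), Kif20a (2.07) and Bicd1 (0). Kif20a went from rank 3 to rank 9 and Kif5b from rank 1 to rank 4, where it overlapped Rgp1. Bicd2 and Vps52, Tmf1 and Gcc2, and Gcc2 and Rabgap1 also overlapped there.

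Among 10962 other genes with a mean of at least 1 FPKM, those whose levels over the 9 libraries ran most like Kif20a were Cmtr2 (Pearson r = 0.9989), Dctd (0.9986) and Kif2c (0.9985), the last a mitotic kinesin. Those most like Vps52, the member with the highest fold change for RAB6A siRNA against NC, were Pgs1 (0.9798), Errfi1 (0.9775) and an identifier without a name in GENCODE M21 (0.9712). These are descriptions over 9 libraries of 3 groups, which share the step between the RAB6A siRNA group and the rest.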

How the data were processed

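RNA-seq of 9 libraries of RAW264.7 cells was used, with 3 libraries for each of NC, SFRP2 and RAB6A siRNA as grouped by the treatment label. The authors deposited FPKM per gene, made per the labels with HISAT2 and featureCounts of Subread, from mRNA libraries sequenced as pairs, and the genome build and annotation are not given in the sources used here. The labels and the study's methods differ in siRNA dose, medium, transfection reagent and stimulus, and the labels were followed. Of 28137 identifiers, 27533 were named from GENCODE M21 (GRCm38). FPKM times exon length gave whole reads within 0.03 of a read in all libraries for 27074 genes (98.3%), at 32758730 to 47149253 reads per library.

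For each comparison, genes averaging 0.5 FPKM or more across its 6 libraries were kept, and log2(FPKM + 0.1) was fitted with limma (version 3.58.1, R version 4.3.3; functions lmFit and eBayes, the latter with its trend option) and Benjamini-Hochberg adjustment. Fold changes on this scale are understated for low genes. DEGs needed a log2 fold change beyond 1 in size with an adjusted p below 0.05. The count model of the study's methods was not used, since the deposited values are not counts. As an alternative, limma with voom weights on these reads called 9353 of 12298 genes for RAB6A siRNA against NC and 49 of 11670 for SFRP2 siRNA against NC. Log2 ratios were compared with exact permutation tests (scipy 1.17.1). On simulated data of the RAB6A siRNA and NC comparison with 12258 genes, 84 of 100 genes changed by 1.5 and 41 of 100 changed by 0.5 on the log2 scale were called, with 5 of 12066 unchanged genes. Far fewer genes were changed there than were called in the data (9418 of 12712). The adjustment therefore worked under another setting, and these shares do not carry over to the real comparison. Labels do not say whether replicates were separate cultures, so that p-values measure the spread between these libraries, which may be technical. Library pairs of a group differed by more than counting noise. All members, Rab6a and Rab6b, and genes of lists written by hand were named. The members and lists were chosen with earlier results of these data known.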

Additional observations from a re-analysis of the deposited data

How the results depend on the processing

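Kif20a, Kif5b and Tmf1 kept their direction and an adjusted p under 0.05 for RAB6A siRNA against NC in all 18 alternatives, with log2 fold changes from -3.05 to -2.34, from -0.91 to -0.76 and from -0.59 to -0.46. The count of members with an adjusted p under 0.05 was 3 on the deposited values, 6 after quantile normalization, 6 after the GC and length correction and 5 with voom, where Vps52 and Bicd2 and, except with voom, Golga5 joined, and the cause was not tested. Without a fold threshold the called members were 3 in this comparison and 5 in that of RAB6A siRNA with SFRP2 siRNA. In the latter, 2 members were DEGs with a pseudocount of 0.01, since Kif5b lies at the threshold. With each library left out in turn, the DEGs ranged from 1 to 2 and the members with an adjusted p under 0.05 from 3 to 5 there, and from 3 to 4 against NC. For SFRP2 siRNA against NC, limma on the deposited values called 0 genes and voom 49, none of them a member. The call of Rab6a was lost after the GC and length correction.

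Members near 0 changed sign. For RAB6A siRNA against NC, Rabgap1 was -0.0033 after quantile normalization. For SFRP2 siRNA against NC, the GC and length correction gave 0.0041 for Rgp1, -0.0376 for Rabgap1, 0.0040 for Golga5 and 0.0919 for Vps52, and voom gave 0.0034 for Vps52. For RAB6A siRNA against SFRP2 siRNA it gave 0.1148 for Gcc2, -0.0825 for Rgp1 and 0.1966 for Rabgap1, the last with an adjusted p of 0.0371 from limma, and Rabgap1 was 0.0113 with median-of-ratios scaling and 0.0298 with voom. Leaving out a library gave Vps52 values from -0.0472 to 0.020 for SFRP2 siRNA against NC. For RAB6A siRNA against SFRP2 siRNA it gave -0.1439 to 0.0140 for Gcc2, -0.0444 to 0.0410 for Rgp1 and -0.0576 to 0.0096 for Rabgap1.

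Libraries of different groups were correlated by the deviations of their log2 values from the group mean, not by their levels. These correlations were between -0.0847 and 0.0477 for libraries with the same replicate number in their titles. For libraries with different numbers they were between -0.1158 and 0.0815, a range that overlaps the first. Whether the replicate numbers pair the libraries was not tested. With the replicate number as a block, the number of called genes was 9103 in place of 9418 and 3 members were called; with the block and the GC and length correction, 6 were. The ratio of Rgp1 to Ric1 ranged from -1.19 to -0.96 for RAB6A siRNA against NC and from -0.20 to 0.0326 for SFRP2 siRNA against NC over its alternatives. The planned ratio of Bicd1 to Bicd2 is not given, since Bicd1 lay at or near the limit of 3 reads.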
